A study of Homo sapiens with 7 samples.

Results

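The BCL2 family decides whether the outer membrane of the mitochondrion stays closed, and 10 of its genes were examined here in esophageal squamous carcinoma cells in which TP63, SOX2 or the long noncoding RNA CCAT1 had been silenced. The members were chosen by name: the anti-apoptotic genes BCL2, BCL2L1, MCL1, BCL2A1 and BCL2L2, the effector BAK1, and the BH3-only genes BCL2L11, BID, BIK and BMF. Earlier results of these data were known when they were chosen. They are 10 of the 56237 genes to which a transcript of the files was assigned. RNA-Seq was available for 7 libraries of 2 established squamous carcinoma lines, with 1 library per condition. The 4 TE5 libraries came from cells with a scramble shRNA or with an shRNA against TP63 (shTP63), SOX2 (shSOX2) or CCAT1 (shCCAT1). The 3 KYSE140 libraries came from cells with scramble, shTP63 or shSOX2. All cells, controls included, were grown in serum-containing DMEM and carried a lentiviral shRNA, with a single hairpin for each target, named shp63-ma, shsox2-1 and shCCAT1-2 in the labels. A difference within a line therefore has no replicate check, and effects of a hairpin on other transcripts cannot be told apart from those of its target.

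Cells commit to the mitochondrial route of apoptosis when BAX or BAK1 form pores in the outer mitochondrial membrane and cytochrome c escapes into the cytosol. The anti-apoptotic proteins (BCL-2, BCL-XL from BCL2L1, MCL-1, BFL-1 from BCL2A1 and BCL-W from BCL2L2) hold the effectors and the BH3-only proteins in a surface groove. The BH3-only proteins (BIM from BCL2L11, BID, BIK and BMF) carry the short BH3 helix that fills this groove, and many of them are regulated at the level of transcription. In stratified squamous epithelium the p63 protein, product of TP63, maintains the basal cells, and SOX2 is amplified together with it in many squamous cancers.

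The BH3 helix is what the family shares, so the codons of its core are shown for each member in which a search found them. For each gene the search covered the coding sequence of its leading protein-coding transcript by mean count, read from the GRCh37 genome. The pattern was a leucine codon, any 3 codons, and then glycine and aspartate codons, and it occurred exactly once in 7 of the 10 members. In the other three, a search with alanine in place of glycine, or methionine in place of leucine, found 1 match in BCL2L2 and 1 in BMF, and none in BCL2A1. Each sequence below is a stretch of coding exon from 2 codons before the match to 2 codons after it, read 5′ to 3′ on the coding strand, with the codons of the fixed residues in capitals.
BCL2 (chr18:60985588-60985617, minus strand): ctgaccCTCcgccaggccGGCGACgacttc
BCL2L1 (chr20:30309731-30309760, minus strand): caagcgCTGagggaggcaGGCGACgagttt
MCL1 (chr1:150551347-150551376, minus strand): gagaccTTAcgacgggttGGGGATggcgtg
BCL2L2 (chr14:23777106-23777135, plus strand): caagccATGcgggcagctGGAGATgagttc
BAK1 (chr6:33543170-33543199, minus strand): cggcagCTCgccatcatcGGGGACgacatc
BCL2L11 (chr2:111907674-111907703, plus strand): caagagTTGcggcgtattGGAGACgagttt
BID (chr22:18222187-18222216, minus strand): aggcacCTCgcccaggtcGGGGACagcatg
BIK (chr22:43523716-43523745, plus strand): ctgcggCTGgcctgcatcGGGGACgagatg
BMF (chr15:40396402-40396431, minus strand): cgaaagCTTcagtgcattGCAGACcagttc
Every form of the pattern requires the aspartate codon, so its presence in all 9 was set by the search and is not a finding. Outside the fixed residues the codons differ between members. BMF, the member with the largest difference between libraries described below, was the only one matched through alanine in place of glycine.

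The libraries held between 68532611 and 98036494 estimated counts. TP63 checked the labels: its normalized count in the shTP63 library was 25.9% of scramble in TE5 and 26.1% in KYSE140. SOX2 was at 39.5% of scramble in the TE5 shSOX2 library but at 77.2% in that of KYSE140, so its RNA was lowered less in KYSE140. There its level was 190.5 TPM in scramble and 130.4 TPM in shSOX2. CCAT1 was at 30.6% of scramble in the TE5 shCCAT1 library, and its log2 fold change was below 0 in every other knockdown library too, from -0.98 to -1.40. Of 8 squamous markers, 7 or 8 exceeded 1 TPM (a level scaled for transcript length and library size), and KRT14 was under 1 TPM in all 4 TE5 libraries. Of the defining leukocyte genes, PTPRC reached at most 0.24 TPM, CD3E 0.48 TPM and LYZ 0.07 TPM, and the fibroblast gene COL1A2 at most 0.81 TPM. The summed level of the 5 leukocyte markers, mostly CD68, was 116 TPM in TE5 shTP63 and 48.9 to 69.2 TPM in the other TE5 libraries, and its part in the results was not tested. The description fields of the labels name a flow cell and lane for each library. The knockdown libraries of a line shared a lane that did not hold its scramble library, and for TE5 the flow cell differed as well, so lane and knockdown cannot be told apart in any comparison with scramble.

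MCL1 and BCL2L1 were the most abundant members in TE5, and MCL1, BID and BCL2L2 in KYSE140 scramble (TPM in each case). MCL1, BCL2L1 and BCL2L2 together held between 98.1% and 99.9% of the summed TPM of the anti-apoptotic genes in every library. BCL2, the founding member, stayed between 0.50 and 3.59 TPM, and BCL2A1 between 0 and 0.15 TPM. Among the pro-apoptotic members, BAK1 led in TE5 with 60.2 to 71.6 TPM, and BID led in KYSE140 with 60.0 to 76.4 TPM. In the plot of member levels, for MCL1, BCL2L1, BCL2L2, BCL2, BAK1, BID and BMF, the 4 TE5 libraries and the 3 KYSE140 libraries did not overlap. With 1 culture of each condition, this difference between lines is a description and was not tested. The share of all genes that separate by line in this way was not computed, so the separation is not read as a trait of the members.

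**Figure D1:**
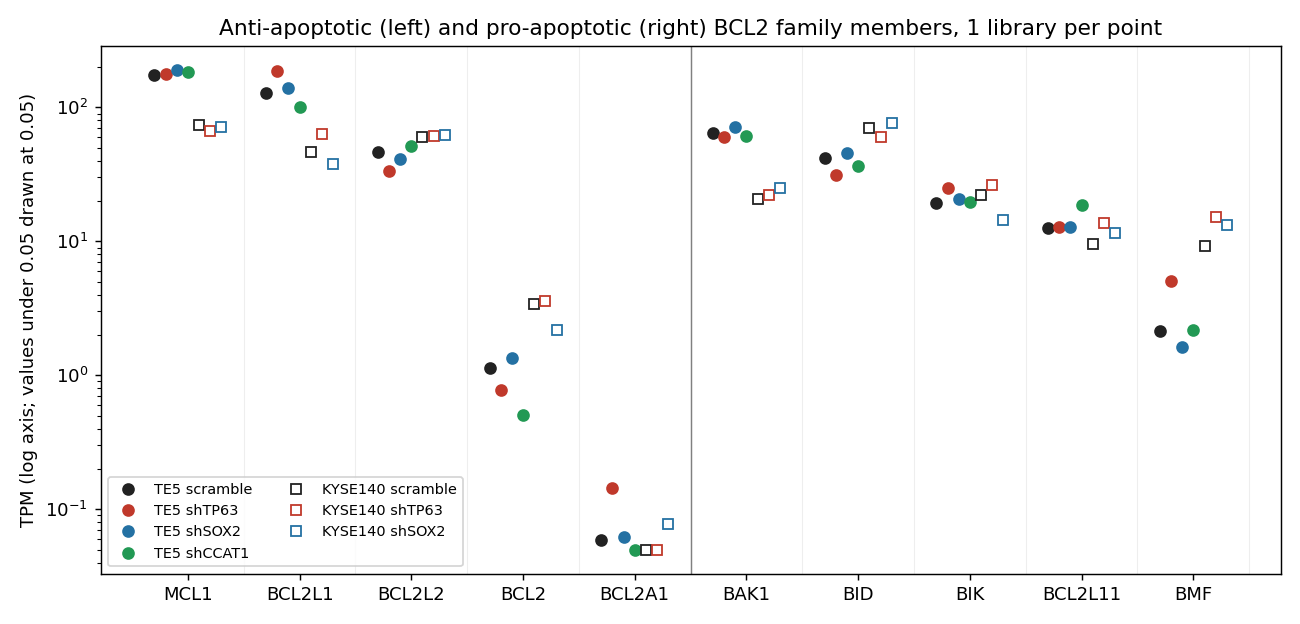
Level of each member (TPM, log axis) in each of the 7 libraries. Filled circles are TE5 libraries and open squares KYSE140 libraries, coloured by shRNA. MCL1 (174.7 to 190.4 TPM in TE5) lies at the top, and BCL2A1 (at most 0.15 TPM) at the bottom.

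Each knockdown library was then compared with the scramble library of its line, on counts scaled by the TMM method. A gene was counted as past the fold when its log2 fold change was below -1 or above 1. BCL2A1 had fewer than 10 counts in every library and was not compared, which left 9 members. Upon TP63 silencing in TE5, 1 of 9 members was past the fold upward (BMF) and 0 downward, where 14.7% of 24559 genes were past it upward and 5.45% downward. Upon TP63 silencing in KYSE140, 0 of 9 members were past the fold in either direction, where 8.77% of 21981 genes were past it upward and 4.2% downward. Upon SOX2 silencing, 0 of 9 members were past the fold in TE5 (6.21% of all genes upward and 4.84% downward) and 0 of 9 in KYSE140 (6.95% upward and 6.18% downward). Upon CCAT1 silencing in TE5, 0 of 9 members were past the fold (11.7% of all genes upward and 5.91% downward). The median log2 fold change of the 9 members ran from -0.20 upon TP63 silencing in TE5 to 0.18 upon SOX2 silencing in KYSE140, beside medians of all genes of 0.06 in each of these comparisons. In bulk RNA a lower value from fewer expressing cells and from less RNA per cell cannot be told apart.

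**Figure D2:**
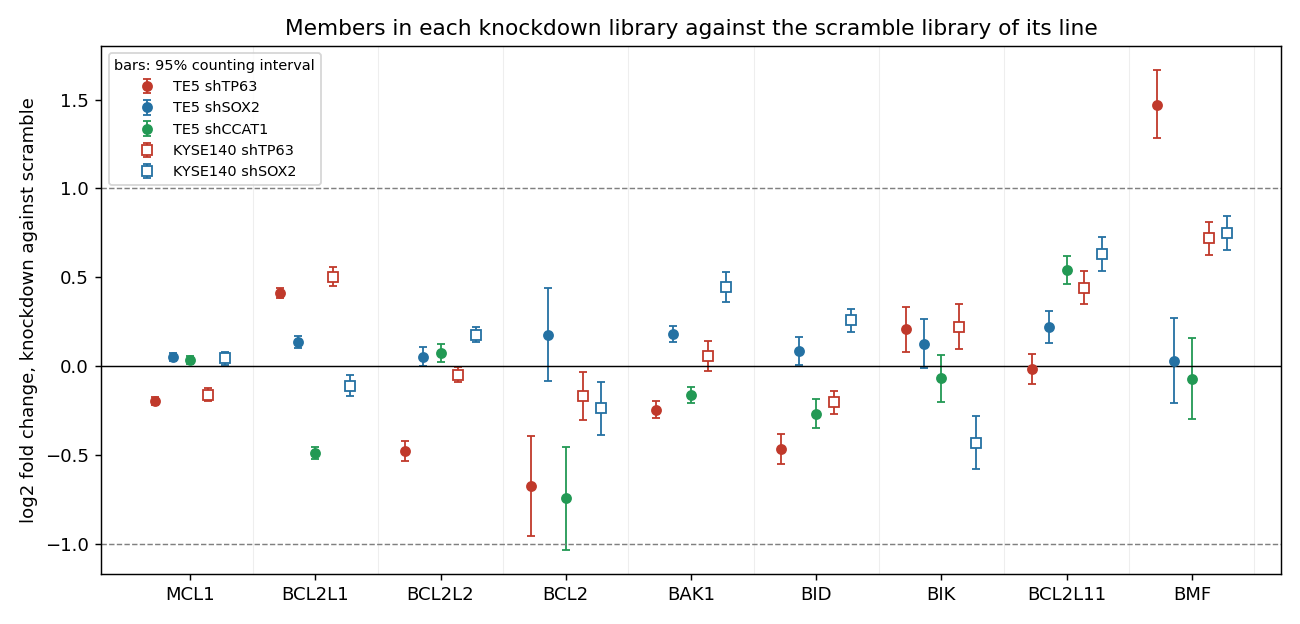
Log2 fold change of the 9 compared members in each knockdown library against the scramble library of its line. Bars are 95% intervals that cover counting error only, and dashed lines mark -1 and 1. BMF in TE5 shTP63 (1.47) is the only point past a dashed line.

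MCL1 (chr1:150533371-150552214), whose protein has a short life and is renewed by steady transcription, barely differed between libraries of a line. Its level was 174.7 TPM in TE5 scramble, 177.8 TPM in shTP63, 190.4 TPM in shSOX2 and 184.9 TPM in shCCAT1. In KYSE140 it was 73.8 TPM in scramble, 66.4 TPM in shTP63 and 71.6 TPM in shSOX2. The 5 log2 fold changes of normalized counts lay between -0.20 and 0.06. The transcript of 1050 coding bases that encodes full-length MCL-1 held between 91.5% and 95.5% of the counts of the gene in every library.

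BCL2L1 (chr20:30252255-30311792) encodes BCL-XL, the long-lived anti-apoptotic protein of many carcinomas, and was higher in the shTP63 library than in every other library of its line. Its level was 128.3 TPM in TE5 scramble, 188.1 TPM in shTP63, 139.9 TPM in shSOX2 and 99.9 TPM in shCCAT1. The KYSE140 levels were 46.8 TPM in scramble, 63.4 TPM in shTP63 and 37.9 TPM in shSOX2. With TP63 silenced, its log2 fold change was 0.41 in TE5 (95% counting interval 0.38 to 0.44) and 0.51 in KYSE140 (0.45 to 0.56). Both values are positive and close in size, and the counting intervals do not reach 0. Upon CCAT1 silencing in TE5 the value was -0.49 (-0.52 to -0.45), the lowest BCL2L1 level among TE5 libraries. Upon SOX2 silencing it was 0.14 in TE5 and -0.11 in KYSE140, with opposite signs. A quasi-likelihood fit in edgeR combined the lines as the only repeats, and there BCL2L1 in shTP63 had a log2 fold change of 0.47 (SE 0.14) and a Benjamini-Hochberg adjusted p of 0.219, which missed the threshold of 0.1. DESeq2 on the same libraries gave 0.44 (SE 0.17) with an adjusted p of 0.0843, which passed it.

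The BCL2L1 transcripts did not share this difference equally. BCL2L1-201, which encodes BCL-XL and starts at chr20 position 30310671, had a normalized count of 7519 in TE5 scramble and 8127 in shTP63, a log2 fold change of 0.11 (0.07 to 0.16). In KYSE140 its normalized count was 1837 in scramble and 2845 in shTP63, a log2 fold change of 0.63 (0.54 to 0.72). BCL2L1-203 encodes the same coding sequence of 699 bases but starts 271 bases downstream, and 249 of its bases lie in an intron of BCL2L1-201. Its normalized count was 2455 in TE5 scramble, 5902 in shTP63, 2899 in shSOX2 and 2674 in shCCAT1. TE5 shTP63 thus stands apart from the other TE5 libraries, with a log2 fold change against scramble of 1.26 (1.20 to 1.33). In KYSE140, BCL2L1-203 had a normalized count of 271 in scramble, 813 in shTP63 and 165 in shSOX2. The shTP63 library was again the highest, with a log2 fold change of 1.58 (1.36 to 1.81) against scramble and of 2.29 (2.03 to 2.56) against shSOX2 of the same lane. The share of BCL2L1 counts held by this transcript was 15.3% in TE5 scramble and 27.6% in shTP63, and 4.7% in KYSE140 scramble and 9.9% in shTP63. In TE5 shCCAT1 its share was 23.3%, while its count was near that of scramble and that of BCL2L1-201 was lower, at 4716. Reads from an unspliced intron and from a transcript that starts there cannot be told apart in these values, and the intervals do not cover the error with which Kallisto splits reads between transcripts. Between 24.6% and 48.2% of BCL2L1 counts were given to a transcript that is not in the annotation used and whose exons are therefore not described.

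BCL2L1 is also known for a choice between a pair of 5′ splice sites in its main coding exon, which sets whether the long BCL-XL or the short, death-promoting BCL-XS is made. The sites are shown because their use can be read from the transcripts, with 10 exon bases and then 20 intron bases, minus strand, and the GT of the intron in capitals.
Long form (chr20:30309438-30309467): cggcggctggGTaagaaccaagccccttgt
Short form (chr20:30309627-30309656): ctttgaacagGTagtgaatgaactcttccg
The exon ends lie 189 bases apart. Transcripts with the 510 coding bases of the short form, BCL2L1-202 among them, held between 5.77% (KYSE140 shSOX2) and 8.16% (TE5 shSOX2) of BCL2L1 counts. In TE5 the share was 7.70% in scramble and 7.86% in shTP63, and in KYSE140 it was 6.96% in scramble and 6.67% in shTP63. These shares cover annotated transcripts alone, since the splice site used by the BCL2L1 transcript that is not in the annotation is not known. BCL2L1-202 was named here after its values were seen, because it held less than the 10% of counts required of a named transcript.

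**Figure D3:**
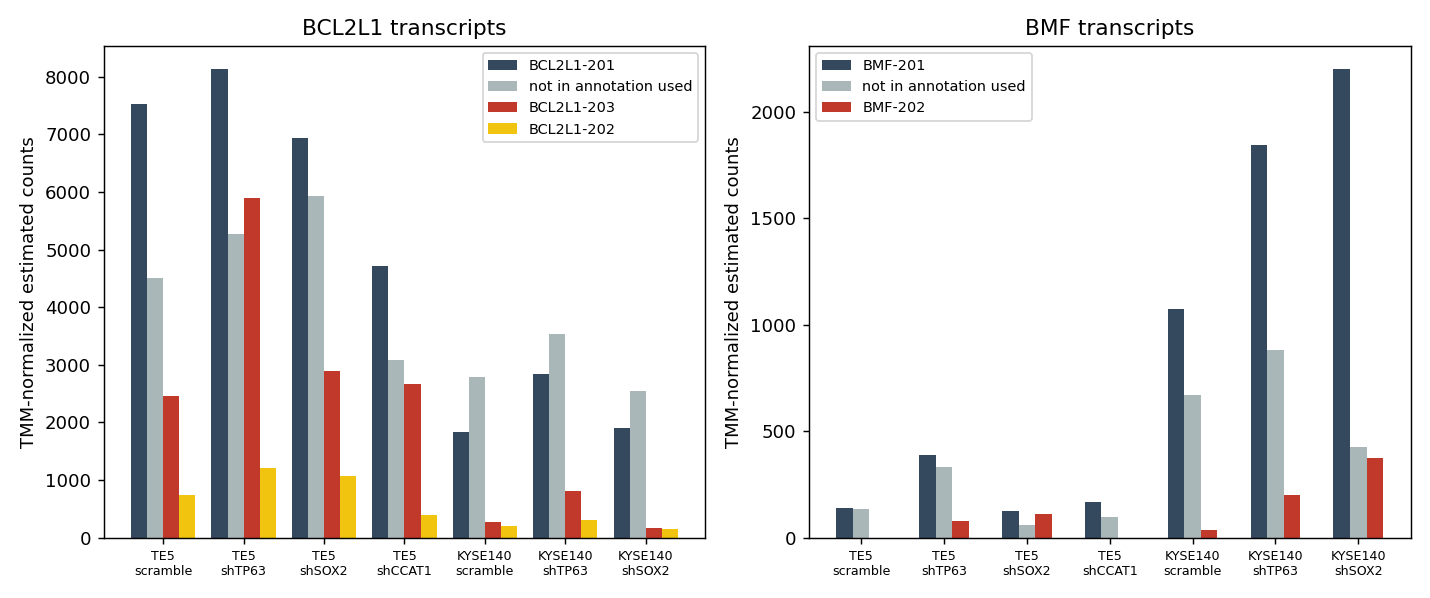
TMM-normalized estimated counts of BCL2L1 transcripts (left) and BMF transcripts (right) in each library, with 1 bar per transcript and library and no error bars. The red BCL2L1-203 bar is highest in shTP63 within each line (5902 in TE5 and 813 in KYSE140), and BMF-202 is at or near 0 in TE5 scramble and TE5 shCCAT1.

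BCL2L2 (chr14:23767999-23780960) encodes BCL-W, an anti-apoptotic protein best known from testis and neurons. Its level was 46.8 TPM in TE5 scramble, 33.3 TPM in shTP63, 41.2 TPM in shSOX2 and 51.4 TPM in shCCAT1. The level in KYSE140 was 59.8 TPM in scramble, 61.4 TPM in shTP63 and 62.3 TPM in shSOX2. TE5 shTP63 was the lowest of all libraries, with a log2 fold change of -0.48 (-0.53 to -0.42), while that of KYSE140 shTP63 was -0.05 (-0.09 to -0.01). The sign of the KYSE140 shTP63 value turned with the measure, at 0.02 with scaling by total count and 0.04 with TPM. In TE5 shSOX2, BCL2L2 likewise had a log2 fold change of 0.05 with scaled counts and of -0.18 with TPM. Of its 31-base words, 21.2% occur in other genes, most of them in the readthrough gene BCL2L2-PABPN1, so its counts are less certain than those of BCL2L1, which shares 0%.

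BCL2 itself (chr18:60790579-60987361) was expressed at a low level, above all in TE5. Its estimated count was 232 in TE5 scramble, 195 in shTP63, 265 in shSOX2 and 182 in shCCAT1, and 767 in KYSE140 scramble, 1020 in shTP63 and 727 in shSOX2. After scaling, TE5 shTP63 and shCCAT1 were the low libraries, with log2 fold changes of -0.67 (-0.96 to -0.39) and -0.74 (-1.03 to -0.46). In KYSE140 the values were -0.17 (-0.30 to -0.03) in shTP63 and -0.24 (-0.38 to -0.09) in shSOX2. BCL2A1 (chr15:80253234-80263538), an NF-kB target mostly found in blood cells, had between 0 and 7 estimated counts, and no difference was detectable at this depth.

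BAK1 (chr6:33540324-33548070), the effector among the members, was higher in every TE5 library than in any KYSE140 library. Its level was 63.9 TPM in TE5 scramble, 60.2 TPM in shTP63, 71.6 TPM in shSOX2 and 61.4 TPM in shCCAT1. KYSE140 had 20.8 TPM in scramble, 22.1 TPM in shTP63 and 25.1 TPM in shSOX2. The shSOX2 library was the highest in both lines, with log2 fold changes of 0.18 (0.14 to 0.23) in TE5 and 0.45 (0.36 to 0.53) in KYSE140. The fit over both lines gave 0.29 (SE 0.14) for shSOX2 with an edgeR adjusted p of 0.603. Of its 31-base words, 16.8% also occur in the pseudogene BAK1P1.

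BMF (chr15:40380091-40401093) gave the largest difference among the members. Its product is held at the cytoskeleton and is released upon loss of attachment, when it binds anti-apoptotic proteins. The estimated count was 289 in TE5 scramble, 1076 in shTP63, 298 in shSOX2 and 361 in shCCAT1. In KYSE140 it was 1360 in scramble, 3341 in shTP63 and 2554 in shSOX2. In TE5 only the shTP63 library was high, whereas in KYSE140 both knockdown libraries were higher than scramble. With TP63 silenced, the log2 fold change of BMF was 1.47 in TE5 (1.29 to 1.67) and 0.72 in KYSE140 (0.63 to 0.81). Upon SOX2 silencing it was 0.03 in TE5 (-0.21 to 0.27) and 0.75 in KYSE140 (0.66 to 0.85). As a level, BMF was at 2.15 TPM in TE5 scramble against 5.08 TPM in shTP63, and at 9.16 TPM in KYSE140 scramble against 15.1 TPM in shTP63. In shSOX2, BMF was at 1.61 TPM in TE5 and 13.3 TPM in KYSE140. With TPM, the log2 fold change in TE5 shSOX2 was -0.39 in place of 0.03, so its sign turned with the measure. The edgeR fit over both lines gave 1.15 (SE 0.33) for shTP63 with an adjusted p of 0.191, and DESeq2 gave 1.12 (SE 0.36) with an adjusted p of 0.0276. For shSOX2 the edgeR value was 0.43 (SE 0.32) with an adjusted p of 0.759.

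The shTP63 and shSOX2 libraries of KYSE140 had similar BMF totals, with estimated counts split differently between transcripts. BMF-201, with 552 coding bases and a start at chr15 position 40401080, had a normalized count of 1074 in KYSE140 scramble, 1845 in shTP63 and 2199 in shSOX2. The transcript that is not in the annotation used had 670 in scramble, 884 in shTP63 and 427 in shSOX2. It was higher than scramble upon TP63 silencing and lower upon SOX2 silencing, with log2 fold changes of 0.40 (0.24 to 0.56) and -0.65 (-0.85 to -0.45). The same transcript had a log2 fold change of 1.29 (1.01 to 1.59) in TE5 shTP63 and of -1.20 (-1.69 to -0.75) in TE5 shSOX2. Its share of BMF counts was lowest in the shSOX2 library of either line, at 19.0% in TE5 and 13.7% in KYSE140. BMF-202 has the same 552 coding bases but starts 2431 bases downstream in an exon of its own. Its estimated share was 0% in TE5 scramble, 9.6% in shTP63, 36.3% in shSOX2 and 0.0003% in shCCAT1. In KYSE140 its share was 2.1% in scramble, 6.6% in shTP63 and 12.0% in shSOX2. The gene-level value of 0.03 in TE5 shSOX2 thus holds transcript estimates that differ in opposite directions. The intervals do not cover the error with which Kallisto splits reads between these transcripts, and real isoform use was not tested. Of the 31-base words of BMF, 7.32% occur in the antisense gene BMF-AS1, and strand was not used in the counting as far as stated.

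BCL2L11 (chr2:111876955-111926021) encodes BIM, a BH3-only protein that binds all anti-apoptotic members and is repressed by growth factor signalling. Its estimated count was 1947 in TE5 scramble, 2584 in shTP63, 2292 in shSOX2 and 3721 in shCCAT1, and 1428 in KYSE140 scramble, 2893 in shTP63 and 2469 in shSOX2. After scaling, the scramble library was the lowest of KYSE140, with log2 fold changes of 0.44 (0.35 to 0.53) in shTP63 and 0.63 (0.54 to 0.73) in shSOX2. In TE5 the values were -0.01 (-0.10 to 0.07) in shTP63, 0.22 (0.13 to 0.31) in shSOX2 and 0.54 (0.46 to 0.62) in shCCAT1. BCL2L11 was the member with the lowest p upon SOX2 silencing, at a log2 fold change of 0.40 (SE 0.17) and an edgeR adjusted p of 0.542. BCL2L11-204, with 594 coding bases, held between 89.9% and 94.0% of its counts.

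BID (chr22:18216904-18257536), which caspase-8 cleaves to carry the death receptor signal to mitochondria, was lowest in the shTP63 library of each line. Its level was 42.0 TPM in TE5 scramble, 31.4 TPM in shTP63, 46.0 TPM in shSOX2 and 36.3 TPM in shCCAT1. The KYSE140 libraries had 70.0 TPM in scramble, 60.0 TPM in shTP63 and 76.4 TPM in shSOX2. The log2 fold changes upon TP63 silencing were -0.46 (-0.55 to -0.38) in TE5 and -0.20 (-0.27 to -0.14) in KYSE140. The edgeR fit over both lines gave -0.33 (SE 0.14) with an adjusted p of 0.360. BIK (chr22:43506756-43525718), a BH3-only protein of the endoplasmic reticulum with a single transcript in the files, was at 19.3 TPM in TE5 scramble, 24.9 TPM in shTP63, 20.9 TPM in shSOX2 and 19.8 TPM in shCCAT1. In KYSE140 it was at 22.0 TPM in scramble, 26.4 TPM in shTP63 and 14.5 TPM in shSOX2, so shTP63 was the highest library of each line. Its log2 fold change upon TP63 silencing was 0.21 (0.08 to 0.34) in TE5 and 0.22 (0.10 to 0.35) in KYSE140, and upon SOX2 silencing it was 0.13 (-0.01 to 0.26) in TE5 and -0.43 (-0.58 to -0.28) in KYSE140.

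The fit over both lines covered 23504 genes in the 6 scramble, shTP63 and shSOX2 libraries, with the line as a block and an adjusted p under 0.1 as the threshold. It called 288 genes upon TP63 silencing (1.23% of genes tested) and 0 of 9 members. It called 38 genes upon SOX2 silencing (0.162%) and 0 of 9 members. At an unadjusted p under 0.05, 2 of 9 members passed upon TP63 silencing (BMF and BCL2L1), beside 3448 of all genes tested (14.7%). Upon SOX2 silencing 1 of 9 passed (BCL2L11), beside 2168 genes (9.22%). DESeq2 called 1918 genes upon TP63 silencing (8.16%), among them 2 of 9 members, BMF and BCL2L1. It called 700 genes upon SOX2 silencing (2.98%) and 0 of 9 members.

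Since the knockdown libraries of a line shared a lane, they were also compared with each other. BMF was past the fold in TE5 shTP63 against shSOX2, at 1.44 (1.26 to 1.63), as 1 of 9 members upward and 0 downward, where 14.2% of genes were past it upward and 6.11% downward. Against shCCAT1 it was at 1.54 (1.37 to 1.72), again 1 of 9 upward and 0 downward, where the shares of all genes were 14.4% and 9.8%. In TE5 shSOX2 against shCCAT1, 0 of 9 members were past the fold (8.02% of all genes upward and 12.1% downward). In KYSE140 shTP63 against shSOX2, 0 of 9 were past it (10.3% upward and 6.69% downward), and BMF was at -0.03 (-0.11 to 0.04). In TE5 the BMF values within the lane stand beside 1.47 against scramble. In KYSE140 the comparison within the lane sets 2 knockdown libraries against each other, both of them above scramble (3050 and 3116 normalized counts against 1852), so lane and knockdown cannot be told apart there. BCL2L1 was higher in shTP63 within the lane in every case, at 0.27 (0.25 to 0.30) against TE5 shSOX2, 0.90 (0.87 to 0.93) against TE5 shCCAT1 and 0.61 (0.56 to 0.67) against KYSE140 shSOX2. BID was lower, at -0.55 (-0.63 to -0.47), -0.20 (-0.28 to -0.12) and -0.46 (-0.52 to -0.40). BAK1 was at -0.43 (-0.47 to -0.38) against TE5 shSOX2, -0.08 (-0.13 to -0.04) against TE5 shCCAT1 and -0.39 (-0.46 to -0.31) against KYSE140 shSOX2.

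In the fit over both lines, the contrast of shTP63 with shSOX2 takes only its estimate of the spread, and no level, from the scramble libraries. It called 1151 of 23504 genes in edgeR (4.9%) and 0 of 9 members. The members nearest the threshold were BID, at -0.47 (SE 0.14, adjusted p 0.152), and BCL2L1, at 0.47 (SE 0.14, adjusted p 0.158). BMF was at 0.72 (SE 0.33, adjusted p 0.307), and 3 of 9 members had an unadjusted p under 0.05, beside 4182 of all genes tested (17.8%). DESeq2 called 2661 genes (11.3%) and 3 of 9 members, namely BID (adjusted p 0.0260), BCL2L1 (0.0670) and BAK1 (0.0989).

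Ratios within a library do not depend on how libraries are scaled to each other. The summed TPM of the 5 anti-apoptotic members over that of the 5 pro-apoptotic members was 2.51 in TE5 scramble, 2.98 in shTP63, 2.44 in shSOX2 and 2.43 in shCCAT1. In KYSE140 it was lower, at 1.40 in scramble, 1.42 in shTP63 and 1.24 in shSOX2. TE5 shTP63, the library with the highest BMF of its line, also had the highest ratio over these 10 members. With protein-coding transcripts alone it again had the highest, at 2.74. In either form the ratio counts the short form of BCL2L1, of 510 coding bases, as anti-apoptotic. That form held 11.5% of BCL2L1 TPM in TE5 scramble and 10.7% in shTP63. With all transcripts, the sum also counts the BCL2L1 transcript that is not in the annotation used, at 25.4% and 22.6% of BCL2L1 TPM. The sums leave out pro-apoptotic genes outside the members, which differed both ways between TE5 scramble and shTP63. Among them, PMAIP1 was at 87.4 and 208 TPM, BBC3 at 8.44 and 20.4 TPM, and BAX at 159 and 163 TPM. BAD was at 151 and 116 TPM, and BOK at 22.2 and 7.28 TPM. A ratio that includes them was not computed. The ratio of MCL1 to BCL2L1 was 1.36 in TE5 scramble, 0.945 in shTP63, 1.36 in shSOX2 and 1.85 in shCCAT1. For KYSE140 it was 1.58 in scramble, 1.05 in shTP63 and 1.89 in shSOX2. The shTP63 library had the lowest MCL1 to BCL2L1 ratio of each line. With protein-coding transcripts alone it again had the lowest of each line, at 1.01 in TE5 and 1.42 in KYSE140. Which of MCL1 and BCL2L1 was higher in TE5 shTP63 thus turned with the transcripts summed. BMF over BCL2L11, as levels in TPM, was 0.171 in TE5 scramble and 0.397 in shTP63, and 0.958 in KYSE140 scramble and 1.11 in shTP63. These ratios are values of single libraries and carry no test.

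**Figure D4:**
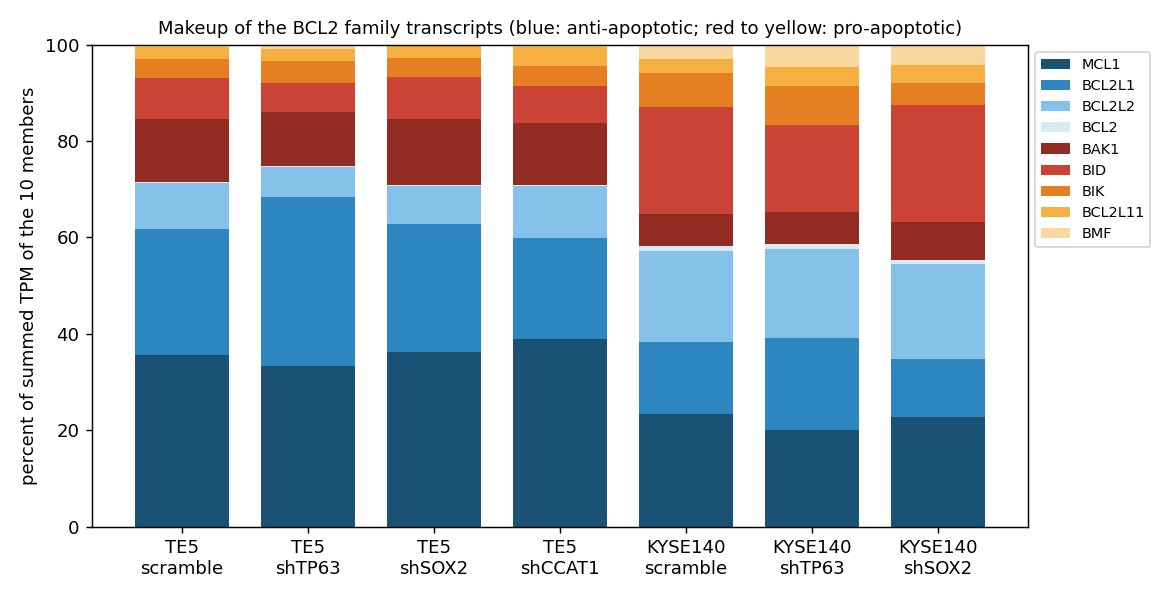
Percent of the summed TPM of the 10 members held by each member in each library, with anti-apoptotic members in blues and pro-apoptotic members in reds to yellows (BCL2A1 is too low to draw). The blue part is largest in TE5 shTP63, where the ratio of anti-apoptotic to pro-apoptotic TPM was 2.98, and smallest in KYSE140 shSOX2, where it was 1.24.

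The family acts between death signals and caspases, and 44 other genes of this route were examined as a list. In TE5 shTP63, 7 of the 44 were past the fold upward and 2 downward (14.7% and 5.45% of all genes), with a median log2 fold change of 0.08 beside 0.06 for all genes. In KYSE140 shTP63, 3 of 43 were past it upward and 0 downward (8.77% and 4.2% of all genes), with a median of 0.12 beside 0.05. Upon SOX2 silencing 0 of 42 were past the fold in TE5, where 6.21% of all genes were past it upward and 4.84% downward, and 1 of 42 in KYSE140, where the shares were 6.95% and 6.18%. Upon CCAT1 silencing 1 of 43 was past it, beside 11.7% upward and 5.91% downward. The most abundant genes of the list by mean TPM were VDAC2 (357), BNIP3 (293), VDAC1 (257.0), CYCS (244) and BAX (142), encoding channels of the outer membrane, a mitophagy receptor, cytochrome c and the second effector. BAX was not past the fold in any comparison with scramble, and its level exceeded that of BAK1 by 2.05 to 2.71 times in TE5 and by 4.92 to 6.35 times in KYSE140.

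Of the BH3-only genes outside the members, PMAIP1 and BBC3, the p53 targets that encode NOXA and PUMA, were the ones past the fold in TE5 shTP63. PMAIP1 had 7309 estimated counts in TE5 scramble and 21303 in shTP63, a log2 fold change of 1.12 (1.08 to 1.16), and NOXA binds MCL-1 above all. In the fit over both lines PMAIP1 rose by 0.94 (SE 0.17, edgeR adjusted p 0.0928) upon TP63 silencing. BBC3 had a log2 fold change of 1.13 (1.00 to 1.27) in TE5 shTP63. BCL2L14 and the initiator caspase gene CASP9 were at 1.30 (1.08 to 1.53) and 1.03 (0.88 to 1.18) in the same library. BOK, a relative of BAX and BAK1, was at -1.76 (-1.86 to -1.67) in TE5 shTP63, and it fell in the fit over both lines (-1.27, SE 0.24, edgeR adjusted p 0.0953).

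Downstream of the family, BIRC3, which encodes the inhibitor of apoptosis cIAP2, was the gene of the list past the fold upon TP63 silencing in both lines with at least 100 counts. Its level was 20.7 TPM in TE5 scramble and 51.5 TPM in shTP63, but only 0.75 TPM in KYSE140 scramble and 1.69 TPM in shTP63. It rose in the fit over both lines by 1.11 (SE 0.15, edgeR adjusted p 0.0673). HTRA2, encoding a mitochondrial protease that antagonizes such inhibitors once released, fell by 1.16 (SE 0.21, edgeR adjusted p 0.0928), with 15.4 TPM in TE5 scramble against 5.88 TPM in shTP63 and 22.8 against 13.3 TPM in KYSE140. The death receptor gene FAS rose by 0.94 (SE 0.17, edgeR adjusted p 0.0947), from 32.1 to 67.7 TPM in TE5, with 0.32 and 0.51 TPM in KYSE140. With PMAIP1 and BOK these are the 5 of 42 list genes that edgeR called upon TP63 silencing (1.23% of all genes), and it called 0 of 42 upon SOX2 silencing (0.162%). The list was chosen with earlier results of these data known, so its counts beside the shares of all genes are no independent test. DESeq2 called 10 of 42 upon TP63 silencing (8.16% of all genes) and 2 of 42 upon SOX2 silencing (2.98%), namely FAS (adjusted p 0.0546) and TNFRSF10B (0.00822). Without the TE5 scramble library, or without that of KYSE140, edgeR called 0 of 44 list genes upon TP63 silencing, and likewise 0 of 42 without the line as a block. In the contrast of shTP63 with shSOX2, edgeR called 3 of 42 (4.9% of all genes) and DESeq2 8 of 42 (11.3%). Those of edgeR were BIRC3 (0.81, edgeR adjusted p 0.0524), HTRA2 (-1.13, 0.0520) and BOK (-1.12, 0.0688).

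**Figure D5:**
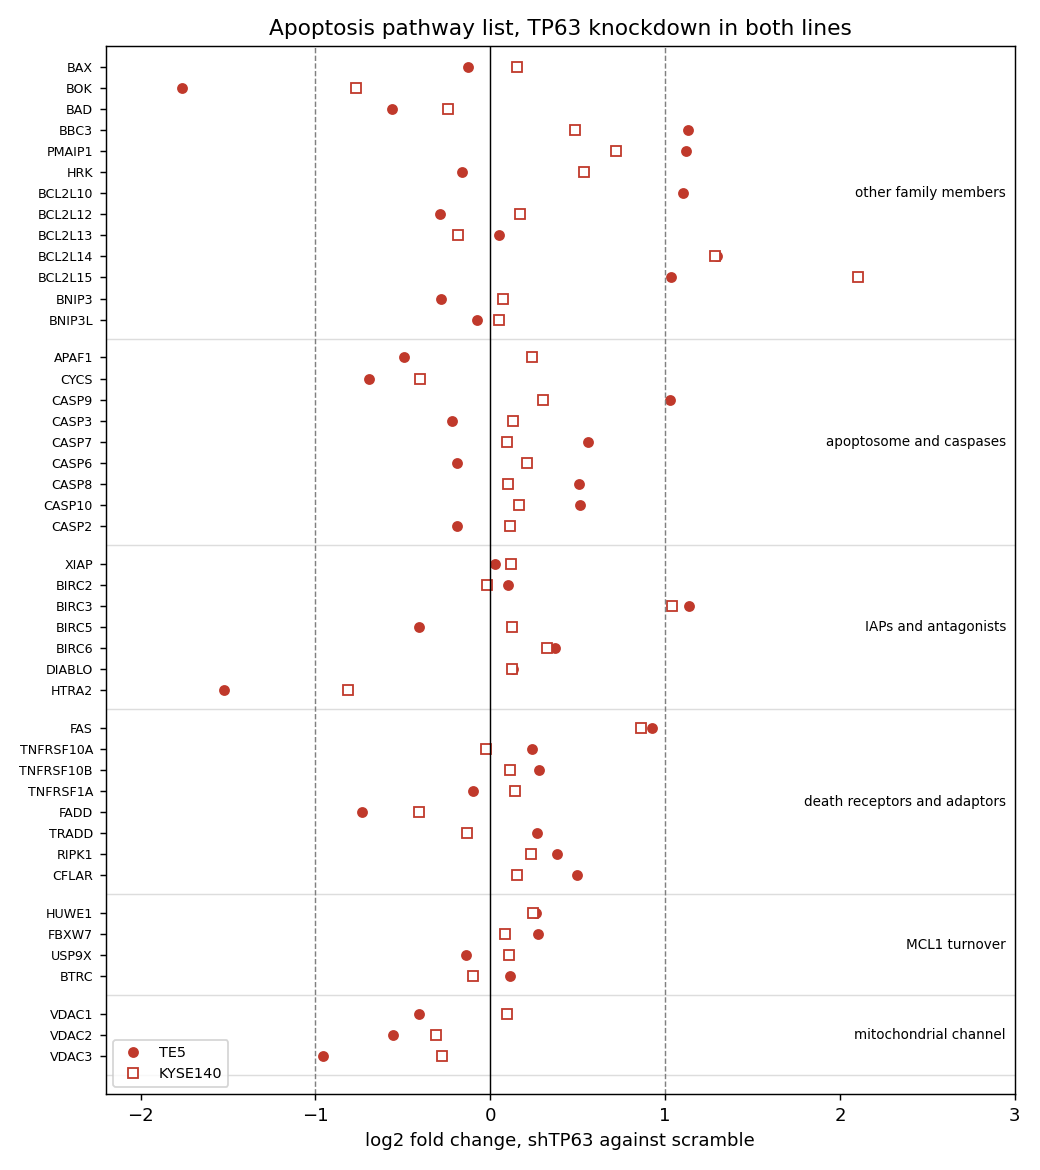
Log2 fold change of shTP63 against scramble for the 44 other genes of the apoptosis route, grouped by role, in TE5 (filled circles) and KYSE140 (open squares), with dashed lines at -1 and 1. BIRC3 (1.13 in TE5 and 1.04 in KYSE140) lies past the upper line in both lines, BOK (-1.76) and HTRA2 (-1.52) past the lower line in TE5 alone. BCL2L14 and BCL2L15 also lie past the upper line in both lines, with at most 27 and 10 counts in KYSE140, where BCL2L10 was not compared.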

How the data were processed

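RNA-Seq of 7 libraries was analysed, with groups taken from the sample titles. Reads were pseudoaligned by the authors with Kallisto to transcripts of Ensembl 82, named hg19 in the submitters' processing notes. Per the file headers, the authors deposited an estimated count and a TPM value for each transcript. Genes were formed here by summing transcripts under GENCODE 44, lifted to GRCh37 (182863 transcripts, 93.6% of counts). A further 7011 transcripts that lay between transcripts of a single gene in file order were given to that gene (3.72%), and 6480 (2.70%) stayed unassigned. The CCAT1 transcript is filed under CASC19 in the annotation and was taken as CCAT1 by its position.

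Gene counts were scaled with TMM (edgeR 4.0.16, R 4.3.3). For pairs of libraries, the log2 fold change of scaled counts plus 1 was taken where either library had at least 10 counts, with an exact (Clopper-Pearson) 95% interval of the count ratio, for counting error only, and no p-value. The fit over both lines used edgeR's quasi-likelihood test on rounded counts of 6 libraries, with line as block, 2 residual degrees of freedom, filterByExpr and Benjamini-Hochberg adjustment. The lines are its only repeats, so its p-values rest on how far differences between conditions vary between the 2 lines, not on replicate cultures. Each SE given with an edgeR value is the absolute log2 fold change over the square root of that test's F statistic. DESeq2 1.42.0 was the alternative tool, and the SE given with its values is the one it reports. Both steps were run on simulated counts with less spread than these data, which does not show how often they err here. Alternatives of scaling, filter, pseudocount, measure, transcripts summed and libraries were computed.

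The members and lists were chosen with earlier results of these data known. Named were all members, the targeted genes, transcripts with at least 10% of a member's counts in a library, and, of the list of 44, genes past the fold with at least 100 counts, the 5 with the highest mean TPM and those called over both lines. PECAM1, of the endothelial markers, was not matched.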

Additional observations from a re-analysis of the deposited data

Results flagged for a closer look

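BCL2L1 upon SOX2 silencing was set apart because the lines moved in opposite directions, with counting intervals that did not reach 0 in either. Its log2 fold change was 0.14 (0.11 to 0.17) in TE5 and -0.11 (-0.17 to -0.05) in KYSE140. The difference between the lines was not tested, since each line has 1 library per condition. SOX2 itself was at 39.5% of scramble in the TE5 library and 77.2% in the KYSE140 library, and the part of this in the result was not tested.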

How the results depend on the processing

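BMF in TE5 shTP63 stayed past the fold under all 7 alternatives. No member value past the fold changed sign. Of the 45 log2 fold changes of members against scramble, 9 changed sign with TPM, 6 with scaling by total count, which moves all genes by 0.14 in TE5 shTP63 and 0.18 in TE5 shCCAT1, and 4 with protein-coding transcripts alone. With median-of-ratios size factors, a minimum of 50 counts or none, and a pseudocount of 10, 0 changed sign. Without the filter, BCL2A1 (at most 7 counts) raised the members past the fold to 2 in TE5 shTP63, 1 in TE5 shCCAT1, 1 in KYSE140 shTP63 and 1 in KYSE140 shSOX2. With TPM, 1 member was past it in TE5 shCCAT1 (BCL2, -1.04), and with protein-coding transcripts alone 1 in KYSE140 shSOX2 (BMF, 1.19). Adding the transcript listed next to BAK1, an alternative chosen after seeing the data, kept BAK1 within the fold. With protein-coding transcripts alone, 57 of 63 member shares of the family's TPM moved, by -3.92 to 3.31 percentage points.

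Genes called over both lines upon TP63 silencing, upon SOX2 silencing and between them numbered 1918, 700 and 2661 with DESeq2, and 1420, 485 and 2223 without the filter. With no replicate block, that is without the line, they numbered 0, 0 and 0 (198, 114 and 309 at an unadjusted p under 0.05). Leaving out each library in turn gave 0 to 2810, 0 to 1005 and 5 to 3100 calls, with 0 upon TP63 or SOX2 silencing without either scramble library, whose line then has no control. Upon TP63 silencing the calls were 589 without TE5 shTP63, 1186 without TE5 shSOX2, 2810 without KYSE140 shTP63 and 1412 without KYSE140 shSOX2. Upon SOX2 silencing they were 1005, 376, 972 and 138 in the same order. BMF upon TP63 silencing passed the threshold under 5 of 11 alternatives (adjusted p 0.000369 to 1.00), and BCL2L1 under 1 (0.0843 to 1.00). No member passed it upon SOX2 silencing under any of the 11. For BCL2A1, with at most 7 counts, depth allows no comparison.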

Other observations

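BID transcripts of 297 coding bases, shorter than the 585 of full-length BID, held 25.6% of BID counts in TE5 shCCAT1, against 16.4% in scramble, 15.6% in shTP63 and 19.3% in shSOX2. In KYSE140 their share was 10.1% in scramble, 9.42% in shTP63 and 11.8% in shSOX2. The intervals of these shares cover counting error only, and between 41.5% and 51.4% of BID counts belonged to a transcript that is not in the annotation used. BCL2-202, the longer of its main transcripts, held 62.8% of BCL2 counts in TE5 scramble and 78.0% in shTP63, and 86.8% in KYSE140 scramble and 88.5% in shTP63. These shares are values of single libraries.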
